A study of Mus musculus with 6 samples.

Results

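The Notch genes described here are 9: the receptors Notch1, Notch2 and Notch3, the ligands Jag1, Jag2 and Dll1, and the Hes/Hey genes Hes1, Hey1 and Heyl. They were chosen by name, for the known role of Notch in smooth muscle and in the gut, with earlier results of these data known. All 9 were found among the 12393 genes measured, and 16 of the 20380 probe sets with a single gene name belong to them. Where a gene had several probe sets, the one with the highest mean level stood for it.

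RNA from cultured embryonic mouse gut cells was hybridised to 6 Affymetrix arrays, in 3 groups of 2 biological replicates on the C57BL/6 strain. All tissue was taken at embryonic day 13.5, treated with collagenase-dispase and trypsin to deplete endoderm, and cultured for 3 days in medium with 20% serum. The stomach and intestine groups came from control embryos that carried either the Rosa26+/Barx1 or the Bapx1+/Cre allele, and the labels do not say which allele each sample had. The third group, here Barx1 intestine, came from intestines with both alleles, Rosa26+/Barx1;Bapx1+/Cre. In these embryos Cre made under the Bapx1 (Nkx3-2) locus switches on BARX1, a homeodomain factor of the stomach mesenchyme, in the cells where that locus is or was active. The labels do not say whether a replicate is 1 embryo or a pool, nor whether replicates share a litter. The p-values therefore measure only the spread between these samples.

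Notch signalling passes between touching cells. A ligand of the Jagged or Delta-like family on one cell binds a Notch receptor on its neighbour, the receptor is cut by an ADAM protease and then by gamma-secretase, and its intracellular part enters the nucleus. There it joins the DNA-binding protein RBPJ and a Mastermind coactivator and turns on genes of the Hes and Hey families, which encode transcriptional repressors. In mouse vessels Jag1 and Notch3 act in smooth muscle differentiation. In the gut epithelium Notch decides between absorptive and secretory cells, and in the enteric nervous system it restrains neuron formation.

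The question of the series is how BARX1 controls stomach smooth muscle development, and the arrays allow 3 comparisons: stomach with intestine, Barx1 intestine with intestine, and Barx1 intestine with stomach. They share arrays, so they are not independent of each other. All values below are log2 levels or differences of log2 levels, so that a difference of 1 is a doubling. Every adjusted p comes from limma with Benjamini-Hochberg adjustment over all 12393 genes, and a gene was called at an adjusted p under 0.05.

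Array medians lay between 6.93 and 6.98 and lower quartiles between 4.72 and 4.76. All 9 genes read above the lower quartile on every array, while a level below it was not shown to be above background. Replicates differed least in stomach, with an SD of their difference over all genes of 0.149, against 0.232 for intestine and 0.199 for Barx1 intestine. Barx1 itself read 9.82 and 9.79 in stomach, 5.13 and 4.93 in intestine, with 8.66 and 8.79 in Barx1 intestine, in the order of the labels. Its intestine level lay near the lower quartile. The cultures still held other cell types besides mesenchyme. Of the 21 endoderm epithelium markers 15 read above the lower quartile on all arrays, as did 16 of 16 macrophage and leukocyte markers, 12 of 13 measured markers of enteric neural crest, neurons and glia, and 16 of 17 mesenchyme markers. The gut mesenchyme factor gene Foxf1 read 6.62 and 6.76, 6.99 and 6.96, then 6.99 and 7.17 for stomach, intestine and Barx1 intestine. The mean of the mesenchyme list stood higher in stomach, at 10.62 and 10.70 there, 10.12 and 10.18 in intestine, then 10.09 and 10.21 in Barx1 intestine. Of its 17 genes, 8 were called higher and 2 lower in stomach than in intestine (median 0.34), where 16.9% of all genes were called. In Barx1 intestine 6 were called lower and 1 higher than in stomach, where 5.2% of all genes were called. Against intestine, 3 were called higher (Twist1, Twist2 and Prrx1) and 1 lower (Foxf2) in Barx1 intestine, where 3.98% of all genes were called. The collagen gene Col1a2 (1.98, adjusted p = 0.00326) and the mesenchymal receptor gene Pdgfra (1.63, adjusted p = 0.00426) were among those higher in stomach than in intestine. So was Prrx1 (3.76, adjusted p = 0.0011, and 2.03 at the smallest under other settings). The 2 lower in stomach were Foxf2 (-1.40, adjusted p = 0.00261) and Hand1 (-0.51, adjusted p = 0.0189). Vim, Acta2 and Tagln were not called. The part of these mesenchyme differences in the Notch values was not tested. On an array of mixed cells, fewer cells of a type and less RNA per cell cannot be told apart.

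The stretches upstream of Jag1 and Dll1 are shown because these ligands were the Notch genes called in a comparison. RefSeq (build GRCm38.p6) gave promoter entries for 6 of the 9 genes, Notch1, Notch2, Notch3, Jag1, Jag2 and Dll1. The 250 bases before the gene start are given 5′ to 3′ on the gene's strand, which is the minus strand for both. Capitals mark TAAT, the core that many homeodomain proteins bind, on either strand. Both stretches lie just outside the annotated gene, before its first exon. The first, upstream of Jag1, is chr2:137116521-137116770 and the second, upstream of Dll1, is chr17:15376933-15377182.
Jag1: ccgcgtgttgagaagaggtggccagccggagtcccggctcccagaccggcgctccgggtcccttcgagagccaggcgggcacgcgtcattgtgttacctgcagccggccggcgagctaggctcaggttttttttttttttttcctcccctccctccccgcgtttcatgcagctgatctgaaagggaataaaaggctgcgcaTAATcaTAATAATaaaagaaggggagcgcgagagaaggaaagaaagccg
Dll1: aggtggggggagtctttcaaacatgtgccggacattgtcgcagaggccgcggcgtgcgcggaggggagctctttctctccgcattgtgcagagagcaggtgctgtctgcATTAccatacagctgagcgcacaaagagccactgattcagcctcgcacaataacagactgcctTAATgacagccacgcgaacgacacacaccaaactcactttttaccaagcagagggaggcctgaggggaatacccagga

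The Jag1 stretch held 3 matches to TAAT, which begin 49, 43 and 40 bases before the start, and the last 2 of them overlap by a base. The Dll1 stretch held 2, at 141 and 78 bases before the start. Dll1 has a second promoter entry, not shown, at chr17:15375824-15376073 inside the annotated gene. It held 1 match, at 208 bases before its own start. TAAT on either strand occurs in 54.9% of the 32851 promoter entries over the same 250 bases, so that a match is common. The letters TGGGAA, the core of the RBPJ site, occur in 21.6% of all entries on either strand and were in none of the 7 entries of the 6 genes. The letters CACNAG, the N-box bound by Hes proteins, were in 3 of the 7 entries (Notch1, Notch2 and Notch3), against 36.7% of all entries. A match is a description of the letters and not a binding site.

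Of the 3 ligands, Dll1 and Jag1 were called between stomach and intestine and Jag2 was not. Dll1, a Delta-like ligand on chromosome 17 (15367354 to 15376932), read 5.94 and 5.96 in stomach, 7.13 and 6.84 in intestine, with 6.20 and 6.44 in Barx1 intestine. The 3 groups did not overlap, with intestine highest, stomach lowest and Barx1 intestine between them. Dll1 was lower in stomach than in intestine by a log2 difference of -1.03 (SE 0.12, 95% interval -1.34 to -0.73, adjusted p = 0.00753), a 2.05-fold difference. Against intestine, Barx1 intestine differed by -0.66 (SE 0.12, 95% interval -0.97 to -0.36), and its adjusted p of 0.0509 missed the threshold. Its difference from stomach was 0.37 (95% interval 0.064 to 0.68, adjusted p = 0.147). The call against stomach ended without either stomach array (adjusted p = 0.0593 without replicate 1 and 0.0612 without replicate 2), with differences of -1.02 and -1.05 there.

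Jag1, the Jagged ligand that in mouse is required for smooth muscle of the vessel wall, followed the same order. It lies on chromosome 2 (137081451 to 137116520). Its levels were 8.92 and 8.96 in stomach, 9.71 and 9.53 in intestine, with 9.09 and 9.39 in Barx1 intestine, again with no overlap between groups. Stomach was below intestine by -0.67 (SE 0.12, 95% interval -0.96 to -0.38, adjusted p = 0.0185), a 1.60-fold difference. For Barx1 intestine the difference from intestine was -0.38 (95% interval -0.67 to -0.089, adjusted p = 0.130) and from stomach 0.30 (95% interval 0.0058 to 0.58, adjusted p = 0.200). The call between stomach and intestine ended without stomach replicate 1 (adjusted p = 0.109), without stomach replicate 2 (0.105) and without intestine replicate 1 (0.0681). The dimmer probe set of Jag1 read 6.44 and 6.44, 6.81 and 6.56, and 6.54 and 6.70 in the same order of groups. Its stomach difference was -0.24 (adjusted p = 0.178 over all probe sets), in the same direction and smaller.

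Jag2, the second Jagged ligand, varied least. It lies on chromosome 12 (112907803 to 112929812) and read 7.11 and 7.08 in stomach, 7.10 and 6.97 in intestine, with 7.17 and 7.04 in Barx1 intestine, and every pair of groups overlapped. Its largest difference was 0.073, between Barx1 intestine and intestine (95% interval -0.12 to 0.26, adjusted p = 0.623). The intervals of the other 2 comparisons ran from -0.13 to 0.25 and from -0.18 to 0.20. The second Jag2 probe set differed by at most 0.11.

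**Figure D1:**
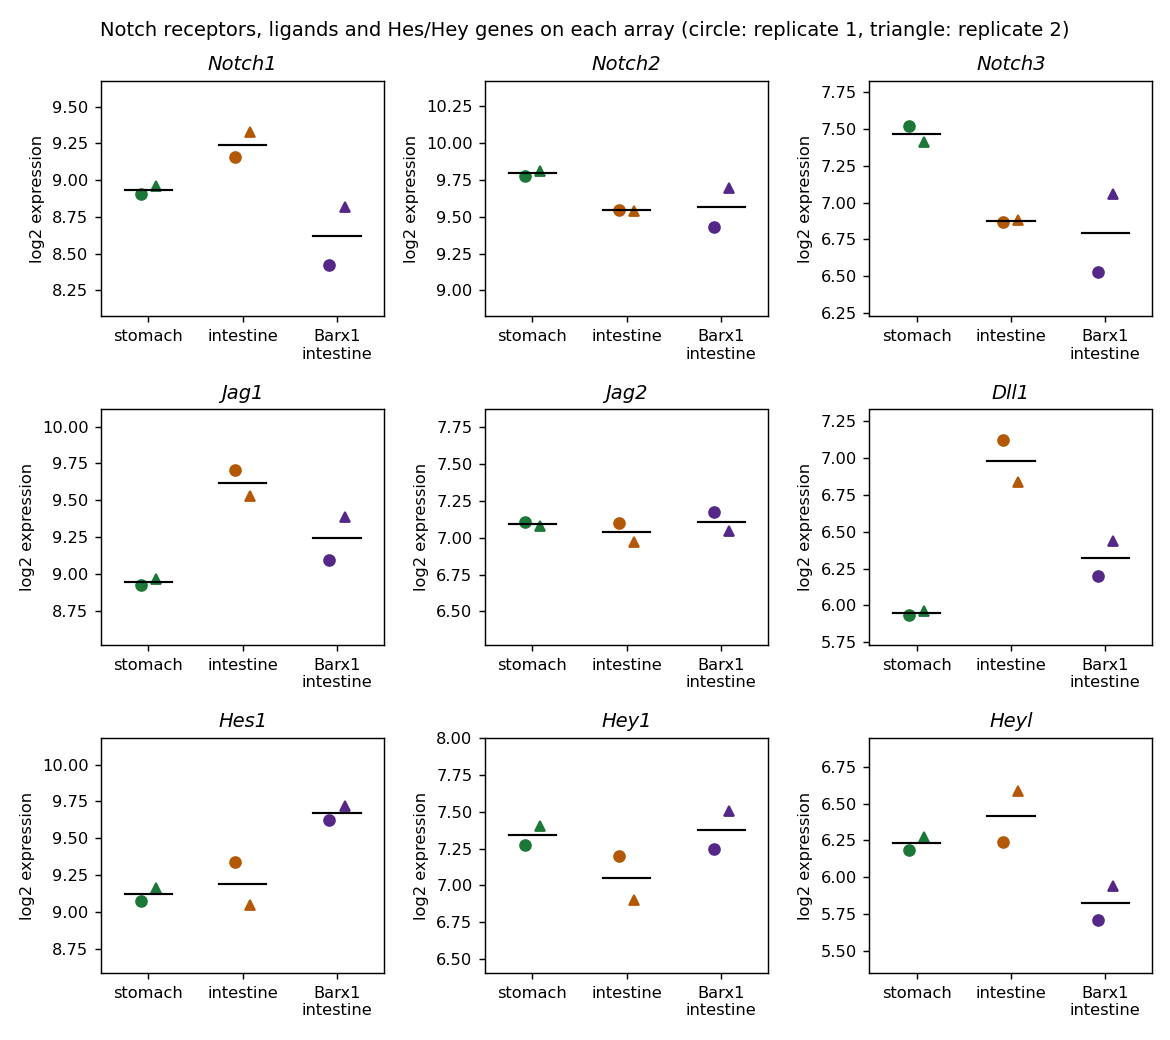
Log2 expression of the 9 Notch genes on each array, by group. Circles are replicate 1, triangles replicate 2 and lines group means, and every panel spans the same range on its vertical axis. Dll1 and Jag1 are highest on the intestine arrays, Hes1 is highest and Heyl lowest on the Barx1 intestine arrays, and Jag2 spans the narrowest range.

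Among the receptors none was called in any comparison. Notch1, a receptor of many lineages, lies on chromosome 2 (26457902 to 26503822). It read 8.91 and 8.96 in stomach, 9.15 and 9.32 in intestine, with 8.42 and 8.82 in Barx1 intestine, so both Barx1 intestine arrays were below the other 4. Barx1 intestine differed from intestine by -0.62 (SE 0.14, 95% interval -0.97 to -0.27, adjusted p = 0.0728). The differences were -0.31 for stomach against intestine (adjusted p = 0.193) and -0.31 for Barx1 intestine against stomach (adjusted p = 0.247). The other Notch1 probe set put the group means in the same order, at 7.04, 7.24 and 6.83 for stomach, intestine and Barx1 intestine. Its difference between Barx1 intestine and intestine was -0.41 (adjusted p = 0.212 over all probe sets).

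Notch2, a widely expressed receptor on chromosome 3 (98013538 to 98150367), varied less. Stomach read 9.78 and 9.81, intestine 9.55 and 9.54, and Barx1 intestine 9.43 and 9.70. The stomach arrays were the highest, and the Barx1 intestine arrays lay on either side of the intestine arrays. The difference between stomach and intestine was 0.25 (95% interval 0.014 to 0.49, adjusted p = 0.132), and that between Barx1 intestine and intestine 0.020 (95% interval -0.22 to 0.26, adjusted p = 0.932). Against stomach, Barx1 intestine differed by -0.23 (adjusted p = 0.215).

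Notch3, the receptor of vascular smooth muscle and pericytes, lies on chromosome 17 (32120820 to 32166896). Its levels were 7.52 and 7.41 in stomach, 6.87 and 6.88 in intestine, with 6.53 and 7.06 in Barx1 intestine. The stomach arrays were the highest, and the Barx1 intestine arrays enclosed those of intestine. Stomach differed from intestine by 0.59 (SE 0.17, 95% interval 0.17 to 1.02, adjusted p = 0.0679), and Barx1 intestine from stomach by -0.68 (95% interval -1.10 to -0.25, adjusted p = 0.0838). Barx1 intestine and intestine differed by -0.082 (95% interval -0.50 to 0.34, adjusted p = 0.822). This probe set is of a kind (suffix s) that can match more than 1 transcript. The other Notch3 probe set read 4.95 and 4.89, 4.73 and 4.78, and 4.47 and 4.73 in the same group order, near the lower quartile, and its stomach difference was 0.17 (adjusted p = 0.304 over all probe sets).

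Of the Hes/Hey genes, Hes1 had its highest and Heyl its lowest values in Barx1 intestine, and none of the 3 was called. Hes1, a repressor that keeps progenitors undifferentiated in many tissues, lies on chromosome 16 (30065357 to 30067796). It read 9.07 and 9.16 in stomach, 9.34 and 9.05 in intestine, with 9.62 and 9.72 in Barx1 intestine, which put both Barx1 intestine arrays above the other 4. The difference was 0.48 from intestine (SE 0.11, 95% interval 0.21 to 0.75, adjusted p = 0.0733) and 0.55 from stomach (SE 0.11, 95% interval 0.28 to 0.82, adjusted p = 0.0515). Both missed the threshold. Stomach and intestine overlapped, with a difference of -0.073 (95% interval -0.34 to 0.20, adjusted p = 0.684).

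Heyl, a Hey family repressor of smooth muscle and heart, lies on chromosome 4 (123233556 to 123249870), and its Barx1 intestine values lay on the other side. Stomach read 6.19 and 6.27, intestine 6.24 and 6.58, and Barx1 intestine 5.71 and 5.94, the lowest of the 6 arrays. Barx1 intestine differed from intestine by -0.59 (SE 0.14, 95% interval -0.93 to -0.25, adjusted p = 0.0761) and from stomach by -0.41 (95% interval -0.75 to -0.067, adjusted p = 0.151). Heyl has 3 probe sets, and the Barx1 intestine arrays were the lowest 2 on each. The second probe set read 5.41 and 5.52 in stomach, 5.64 and 5.56 in intestine, with 5.12 and 5.12 in Barx1 intestine. Its difference from intestine was -0.48 (SE 0.069), and this passed when all probe sets were tested as separate features (adjusted p = 0.0309). The third, below the lower quartile on every array, differed by -0.36 (adjusted p = 0.149 over all probe sets).

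Hey1, a Hey family repressor of vessel and heart development, lies on chromosome 3 (8663359 to 8667038). It read 7.27 and 7.41 in stomach, 7.20 and 6.90 in intestine, with 7.25 and 7.51 in Barx1 intestine. The intestine arrays were the lowest, and the other 2 groups overlapped. The difference from intestine was 0.29 for stomach (95% interval -0.050 to 0.63, adjusted p = 0.202) and 0.33 for Barx1 intestine (95% interval -0.012 to 0.67, adjusted p = 0.224). Barx1 intestine and stomach differed by 0.037 (95% interval -0.30 to 0.38, adjusted p = 0.900).

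**Figure D2:**
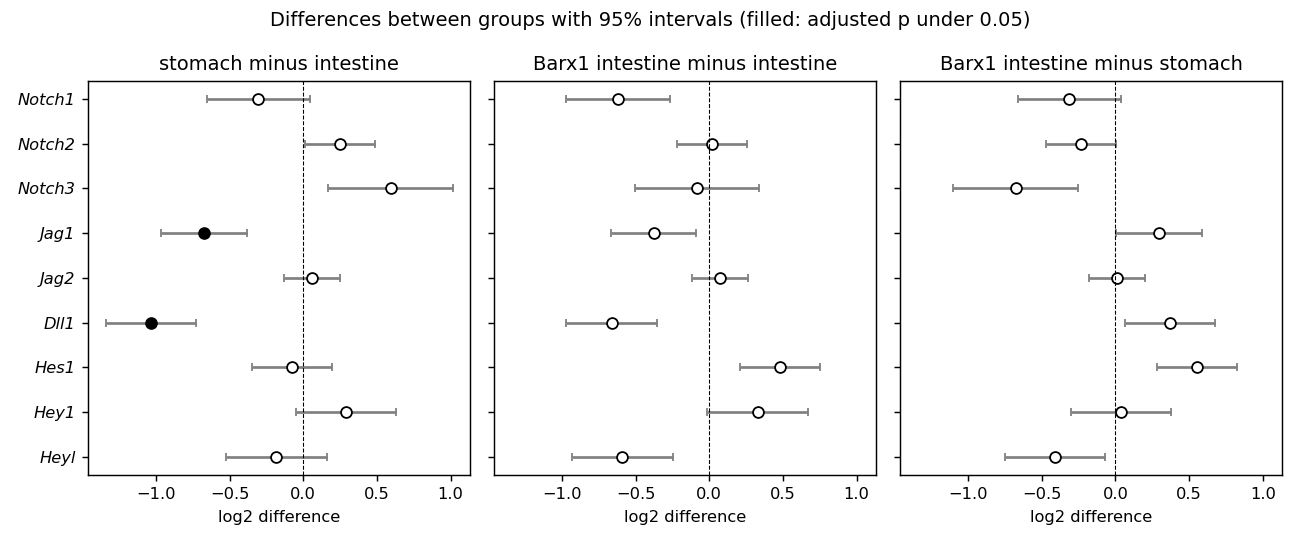
Log2 differences of the 9 genes in the 3 comparisons, with 95% intervals from the limma fit. Filled points passed at an adjusted p under 0.05, which were Dll1 (-1.03) and Jag1 (-0.67) in stomach minus intestine and no gene in the other panels.

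Counted together, 2 of the 9 genes were called between stomach and intestine, both lower in stomach, where 16.9% of all genes were called, and 8.09% as lower; 4 of the 9 (Notch2, Notch3, Jag1 and Dll1) had an unadjusted p under 0.05, where 33.7% of all genes did. A count of 2 among 9 is near the share of all genes. Between Barx1 intestine and intestine limma called 0 of 9, against 3.98% of all genes, with 5 of 9 at an unadjusted p under 0.05 (Notch1, Jag1, Dll1, Hes1 and Heyl), where 23.6% of all genes were. Against stomach it called 0 of 9 in Barx1 intestine, against 5.2% of all genes, with 5 at an unadjusted p under 0.05 (Notch3, Jag1, Dll1, Hes1 and Heyl), where 24.2% of all genes were. Groups whose arrays stood fully apart were found for 6, 6 and 7 of the 9 genes in the 3 comparisons, against 64.1%, 52.4% and 58% of all genes. The median difference of the 9 genes was -0.073, -0.082 and 0.013, against 0.019, 0.021 and -0.00077 over all genes.

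**Figure D3:**
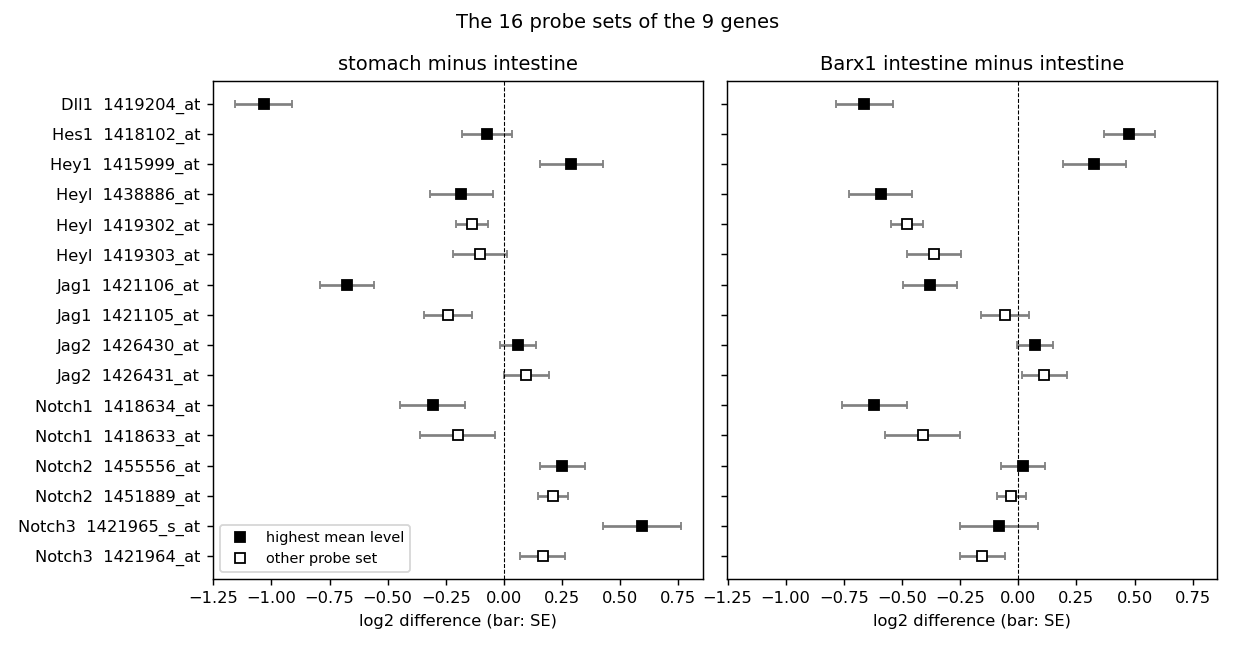
Log2 differences of the 16 probe sets of the 9 genes against intestine, with SE bars. Filled squares are the probe sets used for the gene and open squares the others. The 3 Heyl probe sets (-0.59, -0.48 and -0.36) and both Notch1 probe sets (-0.62 and -0.41) lie below 0 in Barx1 intestine, and the Jag1 probe sets differ in size (-0.67 and -0.24) in stomach.

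Markers of other cell types also varied in level over the 6 arrays. The mean log2 level of the 21 epithelial markers was 6.42 and 6.98 in stomach, 8.11 and 7.29 in intestine, with 7.25 and 6.76 in Barx1 intestine. It was highest on the array where Dll1 and Jag1 were highest, intestine replicate 1. The replicates were not ordered alike in all 3 groups. In intestine the array with more of the epithelial markers had more Dll1 and Jag1. The same held in stomach by a small amount, where Dll1 read 5.94 and 5.96 and Jag1 8.92 and 8.96. In Barx1 intestine the array with more of the epithelial markers had less of both. The epithelial cadherin gene Cdh1 read 7.32 and 8.74, 10.47 and 9.16, and 9.17 and 8.10 in the same group order, and the adhesion gene Epcam 6.91 and 8.24, 9.22 and 7.95, and 7.86 and 7.11. Neither was called in any comparison (between stomach and intestine, adjusted p = 0.127 and 0.295). Of the 21 markers of epithelial cells, 2 were called lower and 0 higher in stomach than in intestine, against 16.9% of all genes. Their median difference was nevertheless -1.01, against 0.019 over all genes. In Barx1 intestine 1 was called lower and 0 higher than in intestine, against 3.98% of all genes. The median of the list was -0.70 there, against 0.021 over all genes. The part of these cells in the Dll1 and Jag1 differences was not tested.

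The 16 macrophage and leukocyte markers had a mean level of 8.44 and 8.13 in stomach, 8.85 and 9.82 in intestine, with 7.04 and 7.91 in Barx1 intestine. Intestine replicate 2 was the highest and Barx1 intestine replicate 1 the lowest array, as for Notch1 and Heyl. In stomach the leukocyte mean was higher on replicate 1, while Notch1 and Heyl were higher on replicate 2. The leukocyte phosphatase gene Ptprc read 7.55 and 7.34, 7.94 and 8.89, then 5.98 and 6.97 in the same group order, and the macrophage receptor gene Csf1r 10.14 and 9.89, 10.58 and 11.42, then 8.87 and 9.61. In Barx1 intestine 6 of the 16 were called lower than in intestine and 0 higher, where 3.98% of all genes were called. The adjusted p of these 6 lay between 0.0413 and 0.0474, and Ptprc and Csf1r were not among them. Between stomach and intestine 0 of the 16 were called. The 13 measured markers of enteric neural crest, neurons and glia averaged 6.85 and 6.73, 7.14 and 7.16, and 6.33 and 6.56, also lowest in Barx1 intestine. The highest and lowest arrays of this list were those of the leukocyte list. Of the 13, 3 were called lower in Barx1 intestine than in intestine and 0 higher, where 3.98% of all genes were called. They were Erbb3 (-2.60, adjusted p = 0.00418, and -1.28 at the smallest under other settings), Ednrb (-3.17, adjusted p = 0.0204) and Sox10. With 1 array left out, the differences in Barx1 intestine ran from -2.8 to -2.4 for Erbb3 and from -3.6 to -2.8 for Ednrb. This Erbb3 call held whichever array was left out. The Ednrb call ended without either stomach array, intestine replicate 2 or either Barx1 intestine array. The neural crest factor gene Sox10 was lower there by -1.58 (adjusted p = 0.0252, and -0.67 over the mean of its probe sets), a call that ended without either stomach or either Barx1 intestine array. Against stomach, 2 of the 13 were called lower in Barx1 intestine and 0 higher, where 5.2% of all genes were called. They were Tubb3 (-1.91, adjusted p = 0.0326) and Erbb3 (-0.86, adjusted p = 0.0442, and -0.45 at the smallest under other settings). That Erbb3 call ended without either array of stomach or of Barx1 intestine. Between stomach and intestine, where Dll1 and Jag1 were called, 3 of the 13 were called lower in stomach and 1 higher, against 16.9% of all genes. The lower 3 were the endothelin receptor gene Ednrb (-2.40, adjusted p = 0.0133), the neuregulin receptor gene Erbb3 (-1.74, adjusted p = 0.00426, and -0.84 over the mean of its probe sets) and Sox10 (-1.09, adjusted p = 0.0234, and -0.41 with adjusted p = 0.0811 over the mean of its probe sets). Between stomach and intestine the Ednrb and Sox10 calls ended without either stomach array, and the Erbb3 call held whichever array was left out. The part of either cell type in the Notch1, Heyl, Dll1 and Jag1 values was not tested.

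Endothelium is a major site of Notch signalling. Its defining markers Pecam1 (between 3.43 and 4.14) and Cdh5 (between 4.16 and 4.60) lay below the lower quartile on all 6 arrays, while 6 of the 12 endothelial markers lay above it on every array. The list mean ran from 5.41 to 5.65, and its members went both ways. Between stomach and intestine 3 of the 12 were called lower and 1 higher in stomach, where 16.9% of all genes were called. The VEGF receptor gene Kdr read 7.09 and 6.89 in stomach, 8.68 and 8.48 in intestine, then 8.05 and 8.49 in Barx1 intestine. Its group means had the order of Dll1 and Jag1, and stomach was lower than intestine by -1.59 (adjusted p = 0.00514), a call that ended without stomach replicate 2 (adjusted p = 0.0508). The junction gene Esam was also lower in stomach (-0.84, adjusted p = 0.00426), as was Pecam1 (-0.59, adjusted p = 0.00961), whereas the VEGF receptor gene Flt1 was higher (0.71, adjusted p = 0.0174). In Barx1 intestine 2 of the 12 were called lower than in intestine and 0 higher, where 3.98% of all genes were called. They were Esam (-0.92, adjusted p = 0.00905) and Pecam1 (-0.61, adjusted p = 0.0239). The Esam call ended there without either Barx1 intestine array, the Pecam1 calls without stomach replicate 2 or, in Barx1 intestine, without any 1 array, and the Flt1 call without either stomach array or intestine replicate 1. Compared with stomach, 2 of the 12 were called higher in Barx1 intestine and 0 lower, where 5.2% of all genes were called. They were Kdr (1.28, adjusted p = 0.0218) and Emcn (0.56, adjusted p = 0.0484), whose stomach levels lay below the lower quartile. This Kdr call ended without either array of stomach or of Barx1 intestine. The part of endothelium in the Dll1 and Jag1 differences was not tested.

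The pericyte markers averaged 8.42 and 8.48, 8.11 and 7.96, and 8.30 and 8.56. Of the 8, 2 were called higher in Barx1 intestine than in intestine, where 3.98% of all genes were called. These were the G-protein regulator gene Rgs5 (2.07, adjusted p = 0.0339) and the potassium channel gene Kcnj8 (1.18, adjusted p = 0.0259). Notch3, on the same list, differed by -0.082 and Cspg4 by -0.33 without a call. The proteoglycan gene Cspg4 was higher in stomach than in intestine (1.09, adjusted p = 0.00628) and lower in Barx1 intestine than in stomach (-1.42, adjusted p = 0.0120), and Kcnj8 was higher in stomach than in intestine (0.86, adjusted p = 0.0214). Without either stomach array the Rgs5 call, both Kcnj8 calls and the Cspg4 call between Barx1 intestine and stomach ended, as did the Rgs5 call without either Barx1 intestine array, both Kcnj8 calls without either intestine array and that Cspg4 call without Barx1 intestine replicate 1. The Cspg4 call between stomach and intestine ended without stomach replicate 2. The mesothelium list, with 6 of 8 markers measured, averaged from 6.89 to 7.68 over the arrays. Its members Krt8 and Krt19 are also on the epithelial list. Of the 6, 2 were called higher and 1 lower in stomach than in intestine, where 16.9% of all genes were called. They were Wt1 (1.33, adjusted p = 0.0213), Bnc1 (1.24, adjusted p = 0.0301) and Msln (-1.13, adjusted p = 0.0175). Msln read 4.33 and 4.71 in stomach, below the lower quartile.

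**Figure D4:**
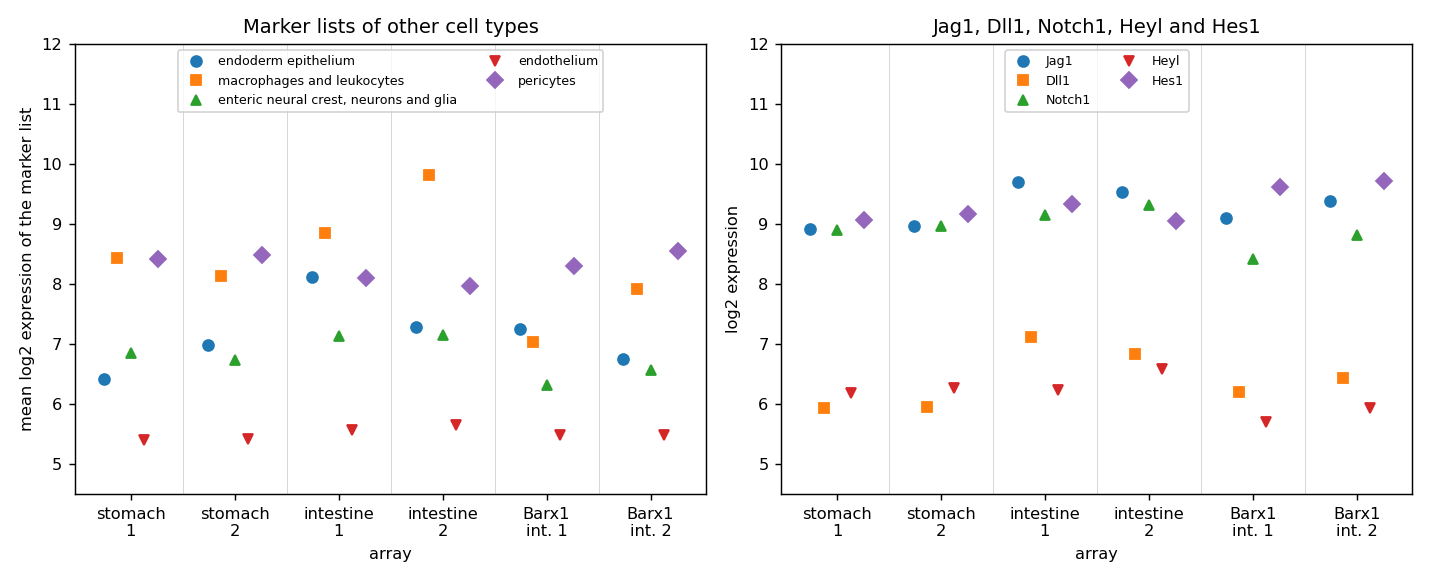
Mean log2 level of 5 marker lists (left) and log2 level of 5 Notch genes (right) on each of the 6 arrays. The leukocyte list runs from 7.04 on Barx1 intestine replicate 1 to 9.82 on intestine replicate 2, the arrays with the lowest and highest Notch1 level. Within stomach the list is higher on replicate 1 and Notch1 on replicate 2.

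The rest of the pathway was read from 10 lists by role, which hold 69 genes besides the 9, of which 57 were measured. In stomach against intestine 6 of the 57 were called higher and 3 lower, a share near the 16.9% of all genes. Their median difference was 0.056, against 0.019 over all genes. All 9 calls ended without stomach replicate 1 and without stomach replicate 2, with adjusted p up to 0.196. In Barx1 intestine against intestine limma called 1 of the 57 higher and 0 lower, where 3.98% of all genes were called. Against stomach 1 was higher and 2 were lower, where 5.2% of all genes were called, and 3 of 57 is near that share.

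Of the remaining receptors and ligands, Notch4, an endothelial receptor, read 4.21 and 4.41 in stomach, 5.26 and 4.93 in intestine, with 4.26 and 4.60 in Barx1 intestine. It was lower in stomach than in intestine by -0.79 (adjusted p = 0.0299), a call that ended with the mean of its probe sets (-0.38, adjusted p = 0.0934), and the stomach and Barx1 intestine levels lay below the lower quartile. The canonical ligands Dll3 and Dll4 were not called. Of the 3 listed ligands that lack the DSL domain by which Jagged and Delta-like proteins bind, Dlk1, an imprinted membrane protein, read 9.87 and 9.80 in stomach, 9.28 and 9.40 in intestine, with 10.83 and 10.85 in Barx1 intestine. Dlk1 rose in Barx1 intestine by 1.50 over intestine (SE 0.067, adjusted p = 0.00176) and by 1.01 over stomach (adjusted p = 0.0103). It was also higher in stomach than in intestine (0.49, adjusted p = 0.0106). The call over intestine held whichever array was left out, and that over stomach ended without either stomach array and without Barx1 intestine replicate 1. Dner, a neuronal membrane protein reported as a Notch ligand, was higher in stomach than in intestine by 0.64 (adjusted p = 0.0103) at levels between 4.30 and 5.05, and its intestine and Barx1 intestine levels lay below the lower quartile, where they were not shown to be above background.

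Among the genes that act on or with the receptor, 5 above the lower quartile were called between stomach and intestine. RBPJ is the DNA-binding partner of all Notch receptors, and Rbpj read 9.05 and 9.10 in stomach, 9.43 and 9.60 in intestine, with 9.43 and 9.28 in Barx1 intestine. The stomach level differed from that of intestine by -0.44 (SE 0.087, adjusted p = 0.0264). Barx1 intestine was at -0.16 from intestine, which was not called (adjusted p = 0.348). Poglut1 and Pofut1, which add glucose and fucose to the receptors, were higher in stomach by 0.34 (adjusted p = 0.0178) and 0.32 (adjusted p = 0.0326). The corepressor gene Tle1 was higher in stomach by 0.56 (adjusted p = 0.00887), and Kdm5a, a histone demethylase that works with RBPJ in repression, was lower by -0.40 (adjusted p = 0.0351). Of the 10 listed Hes and Hey targets, Hes2 was called, at 0.29 (adjusted p = 0.0398), with levels below the lower quartile on all arrays, where it was not shown to be above background. Against stomach, Barx1 intestine was lower for Lfng, a sugar transferase that modifies receptors (-0.33, adjusted p = 0.0485, and -0.18 with adjusted p = 0.122 over the mean of its probe sets), and for Nedd4, a ubiquitin ligase (-0.90, adjusted p = 0.0332, and -0.47 over the mean of its probe sets). Both calls ended without either array of stomach or of Barx1 intestine.

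The lists of ligand endocytosis (3 of 6 measured) and receptor cleavage (6 of 9 measured) had 0 genes called by limma in any comparison. For receptor cleavage the median difference of stomach against intestine was -0.13, and for ligand endocytosis 0.11. The list of negative regulators and turnover had 10 of 12 measured and 0 called between stomach and intestine, with a median of 0.0085.

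**Figure D5:**
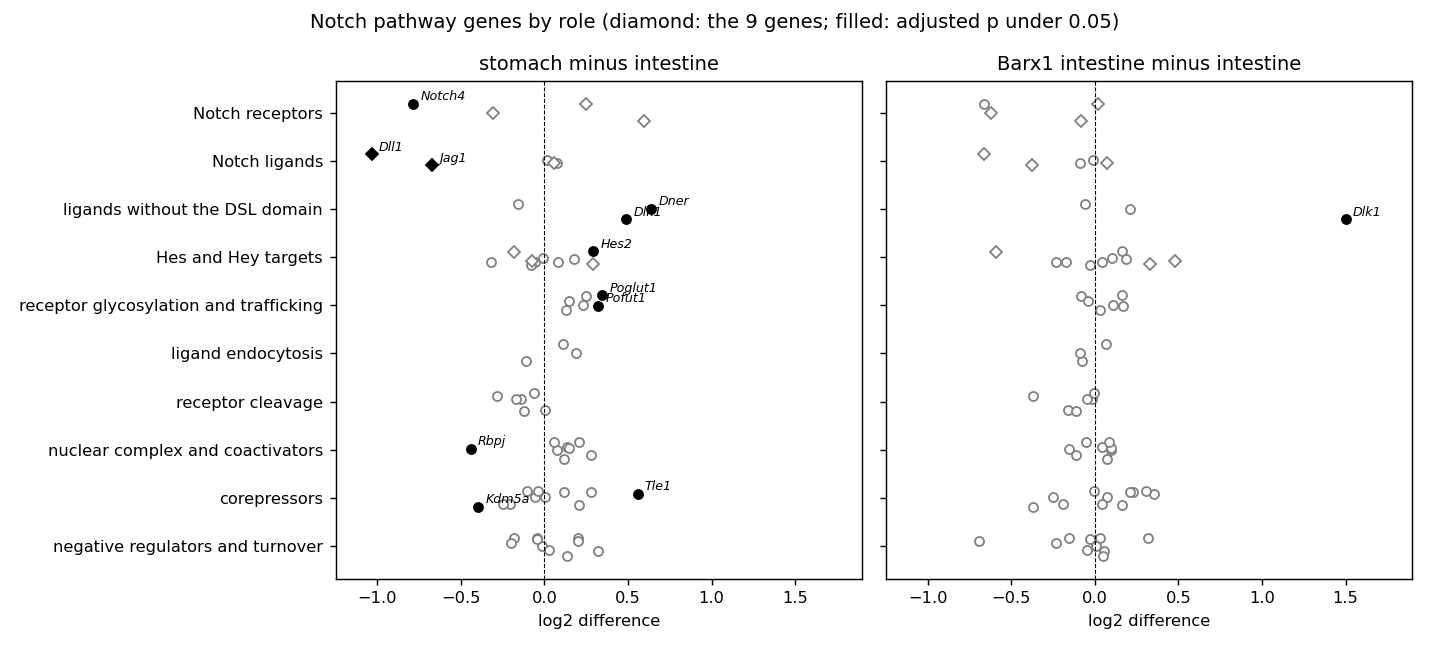
Log2 differences of the Notch pathway genes by role, against intestine. Diamonds are the 9 genes described here, circles the other pathway genes, and filled symbols passed at an adjusted p under 0.05. Dlk1 (1.50) is the filled symbol in the Barx1 intestine panel.

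Genes reported elsewhere as Notch targets were read in 2 further lists. Of 6 smooth muscle genes, Acta2, Myh11, Pdgfrb, Tagln, Itga8 and Nrip2, limma called 0 in any comparison. Myh11, the smooth muscle myosin heavy chain, read 11.05 and 11.26 in stomach, 10.89 and 11.11 in intestine, with 10.39 and 10.72 in Barx1 intestine. Its difference between Barx1 intestine and stomach was -0.60 (adjusted p = 0.0781). Acta2 differed by at most 0.051, but it read from 14.55 to 14.61 on arrays whose highest value was 14.7, where a change might not show, and Tagln read from 14.21 to 14.27. Of 9 other reported targets, 2 were lower in stomach than in intestine, the cell cycle inhibitor gene Cdkn1a (-0.69, adjusted p = 0.00464) and the survival gene Bcl2 (-0.31, adjusted p = 0.0480). A count of 2 among 9 is near the 16.9% of all genes called there. In Barx1 intestine 2 of the 9 were higher than in intestine, where 3.98% of all genes were called. The cyclin gene Ccnd1 rose by 0.57 (adjusted p = 0.0230), and Gata3, a zinc finger factor gene, rose by 1.74 (adjusted p = 0.0198). Gata3 read 5.88 and 5.75 in stomach, 6.19 and 5.84 in intestine, with 7.50 and 8.01 in Barx1 intestine. Against stomach, Gata3 (1.94, adjusted p = 0.0143) and Cdkn1a (0.52, adjusted p = 0.0220) were higher. The Ccnd1 call over intestine held only without intestine replicate 1, and the Gata3 call only without intestine replicate 1 or Barx1 intestine replicate 1. Against stomach, the Gata3 call ended without either stomach array or Barx1 intestine replicate 1, and the Cdkn1a call without any 1 array of either group. Between stomach and intestine the Cdkn1a call held whichever array was left out, and the Bcl2 call ended without any 1 array of either group (adjusted p up to 0.196). These genes have many regulators, and their levels do not measure Notch activity.

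The genes whose pattern over the 6 arrays lay nearest to that of the 2 called ligands were listed by Euclidean distance between log2 values centred on each gene's mean. Nearest to Dll1 were Sprr3 (distance 0.177), Wfs1 (0.236) and Prkx (0.271), where the median distance of all genes was 1.13. Nearest to Jag1 were Tcn2 (0.139), Atox1 (0.143) and Tspan6 (0.146), against a median of 0.787.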

How the data were processed

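Values were log2 expression levels per probe set for 22690 probe sets, as the authors deposited them, made with RMA per the submitters' processing notes; its version is not given in the sources used here. It brings arrays to a common distribution, so a change shared by most genes would be lost. The log2 scale was inferred from their range. Arrays have no depth, and their number limits the precision.

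The platform annotation gave names. A single symbol was listed for 20380 probe sets, more than 1 for 691, and no symbol for 1555, beside 64 controls. Identifiers of 20351 were found in the RefSeq genes of GRCm38.p6, the source of the coordinates, and 0 symbols changed. Each gene was read from its probe set with the highest mean. All 6 arrays entered 1 fit of 3 group means in limma 3.58.1 (lmFit and eBayes; R 4.3.3, package data.table, version 1.17.8), with 3 residual and 2.58 prior degrees of freedom. The same fit was tested on simulated data. SE and intervals are those of the moderated fit. Probe sets were also fitted as separate features.

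The members, gene lists and marker lists were chosen with earlier results of these data known. All 9 members are named, with list genes called in any comparison (at most 4 per list) and fixed defining markers. The listed smooth muscle genes, Dll3, Dll4 and the other named markers fall outside that rule and were chosen after their values were seen. Listed genes without a value were not analysed here. Promoters were searched for 3 motifs on both strands.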

Additional observations from a re-analysis of the deposited data

How the results depend on the processing

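Leaving out an array of the third group gives the same fit as the fit of 2 groups alone, so the 14 alternatives are 12 different fits per comparison. For the 9 genes in 3 comparisons these gave 324 differences, of which 293 kept their direction and side of the threshold, 17 gained a call, 5 lost one and 9 changed sign. The 9 sign changes were of differences without a call. Over all genes, the called number between stomach and intestine was 281 to 1692 when 1 array was left out, against 2100, between Barx1 intestine and intestine 50 to 466, against 493, and between Barx1 intestine and stomach 0 to 727, against 644. For the 9 Notch genes the counts were 0 to 3, 0 to 2 and 0 to 1. An intensity trend gave 1037 and 1189 calls in the comparisons of Barx1 intestine with intestine and with stomach, and the fit of 2 groups alone gave 50 in the first. Notch genes called between Barx1 intestine and intestine numbered 1 with median centring or the filter on dim genes (Dll1), 2 with the mean of all probe sets (Dll1 and Heyl) and 3 with the trend (Notch1, Dll1 and Hes1). Against stomach, Hes1 was the 1 call with median centring, the dim filter, the mean of probe sets, the trend and the fit of 2 groups. Notch3 passed between stomach and intestine with the trend (adjusted p = 0.0485) and in the fit of 2 groups (adjusted p = 0.0152).

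Same-numbered arrays deviated together with correlations of -0.216, -0.0615 and 0.203 over genes (stomach with intestine, stomach with Barx1 intestine, intestine with Barx1 intestine), so the numbers were not taken as pairs. With the replicate number as a block, 1508, 267 and 337 genes were called, and 2, 0 and 0 of the Notch genes. With the stomach numbers crossed, an alternative chosen after seeing the data, the block gave 1879, 570 and 383 calls. Leaving out 1 array, the difference of Hes1 between stomach and intestine ran from -0.22 to 0.072, and that of Jag2 from -0.0058 to 0.13. Against intestine, Notch2 in Barx1 intestine ran from -0.11 to 0.15 and was -0.0046 with the mean of its probe sets, and Notch3 ran from -0.35 to 0.18. Against stomach, Jag2 there ran from -0.051 to 0.077 and Hey1 from -0.091 to 0.17. The cause of these shifts was not tested. The alternative for linear values was not run, since the values are on a log scale.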

Other observations

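Within Barx1 intestine, 8 of the 9 Notch genes read higher on replicate 2 than on replicate 1, with a median difference of 0.257 and the largest for Notch3 (0.527). Over all genes 51.4% were higher on replicate 2, and the median difference was 0.00407. Within stomach 7 of the 9 were higher on replicate 2 (median 0.0399), and within intestine 3 of the 9 (median -0.132). The gene that was lower on replicate 2 of Barx1 intestine was Jag2.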
